A study of Homo sapiens with 24 samples.

Results

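SK-Hep1 is an established human cell line, labelled here as liver, and the data compared 3 libraries from cells transfected with small interfering RNA against GCDH (siGCDH) with 3 libraries from cells transfected with control siRNA (siControl). These are 6 of the 24 RNA sequencing libraries of the series, which also holds the A375 melanoma line in 2 batches and a line labelled SKBR3 (breast). Members of the comparison were the genes whose mean over the 6 libraries was at least 1 TPM, which left 14557 of 60504 rows of the table. TPM, the unit of the table, corrects reads for transcript length and sums to the same total in each library, so that the sequencing depth is unknown. No genotype, drug or other agent is named for either group. Cells were plated the evening before in triplicate wells and collected 48 h after transfection, so that p-values measure well-to-well spread, which may be technical. For the siRNAs, the sequences, number and dose were not given in the sources used here.

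GCDH encodes glutaryl-CoA dehydrogenase, a flavoenzyme of the mitochondrial matrix that turns glutaryl-CoA into crotonyl-CoA on the route by which lysine, hydroxylysine and tryptophan are broken down. The series title ties GCDH to NRF2 (gene NFE2L2), a transcription factor that is held down by KEAP1 and switches on antioxidant, iron-handling and NADPH-forming enzymes. SK-Hep1 serves in the design as a cell line outside melanoma in which GCDH was knocked down too. In the literature it is known as a line of endothelial rather than hepatocyte type, and its markers were therefore examined before the comparison.

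Defining hepatocyte transcripts were absent. ALB, TTR, APOA1, APOB, HNF4A, FGA and FGB were listed at 0 TPM in all 6 libraries, and 14 of 20 hepatocyte markers had a mean under 0.1 TPM. Of 18 endothelial markers, 6 reached a mean of 1 TPM, while KDR, FLT1, ERG and EMCN were listed at 0 and PECAM1 and CDH5 were near 0. The cells held simple-epithelial keratins at high levels (KRT18 at 2746, 2680.2 and 2636 TPM with siControl) but listed the epithelial cadherin CDH1 at 0. The melanocyte genes TYR and S100B and the T cell gene CD3E were also at 0, and the leukocyte gene PTPRC had a mean of 0.27 TPM with siControl and 0.2 TPM with siGCDH. Between 14152 and 14195 genes reached 1 TPM in a siControl library and between 14703 and 14823 in a siGCDH library, and the siGCDH range lies above the siControl range. The libraries labelled SKBR3, used further on, went against their label. With siControl they held ERBB2, the gene known to be amplified in SKBR3, at 23.7 to 28.0 TPM against 40.5 TPM or more in SK-Hep1, and the keratin KRT19 at 0 to 0.68 TPM. Correlations of log2(TPM + 1) among the SK-Hep1 libraries were 0.977 to 0.981 within a group and 0.942 to 0.945 between the groups.

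The targeted transcript was lower in every siGCDH library. GCDH (ENSG00000105607, chr19:12891026-12914207, plus strand, GRCh38 with GENCODE 29) measured 9.79, 9.46 and 8.97 TPM with siControl and 2.77, 3.25 and 2.25 TPM with siGCDH. The siGCDH libraries held 29.3% of the siControl mean and the groups did not overlap (log2 fold change -1.48, SE 0.13, limma adjusted p = 7.09e-05). By an exact permutation test, two-sided, p was 0.1, the smallest that 3 against 3 libraries allow. Fold changes here and below are on the log2(TPM + 1) scale, which understates the change of genes with few transcripts. In bulk RNA, fewer cells of a kind and less RNA per cell cannot be told apart.

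Enzymes of the pathway around GCDH moved in both directions. Of the list of lysine and tryptophan breakdown, 9 of 21 measured members rose, 2 fell and 10 did not pass the test, against 37.3% of all 14557 genes called higher and 18.2% called lower. With every library brought to 1 common median (median scaling), 4 members were called higher and 4 lower, so that the direction of the pathway as a whole depends on the scaling. ALDH7A1, which oxidises aminoadipate semialdehyde upstream of GCDH, measured 125, 113 and 108 TPM with siControl and 195, 205 and 206 TPM with siGCDH (log2 fold change 0.80, SE 0.06, limma adjusted p = 3.09e-05). ETFB, a subunit of the flavoprotein that takes up electrons from GCDH, rose from 63.6 to 103 TPM (log2 fold change 0.69). Both kept their call after scaling, with no overlap between the groups. DHTKD1, which forms glutaryl-CoA, had 15.7 and 15.3 TPM (log2 fold change -0.02, limma adjusted p = 0.934), and its groups overlapped. DLD, the dihydrolipoyl dehydrogenase shared by these complexes, had 85.1 and 99.9 TPM (log2 fold change 0.23, limma adjusted p = 0.00587), a call that ended with median scaling (log2 fold change 0.11, adjusted p = 0.0757). The other fall besides GCDH was KYNU, the kynureninase of tryptophan breakdown, from 13.05 to 9.01 TPM (log2 fold change -0.48). List members with more distant ranks, such as KYNU, are named here and below to fill out small counts and pathways, and were chosen after their values were seen. Among 11 acyl-CoA dehydrogenases, the enzyme family of GCDH, 3 rose and 3 fell, GCDH among the latter (3 and 4 after scaling). ACADM for medium-chain fatty acids rose from 56.9 to 91.6 TPM (log2 fold change 0.68) and ACADVL for very long chains rose from 249.6 to 350.2 TPM (log2 fold change 0.48), while the complex I assembly factor ACAD9 fell from 31.2 to 15.6 TPM (log2 fold change -0.96).

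limma with Benjamini-Hochberg adjustment called 5432 genes higher and 2644 lower with siGCDH at an adjusted p under 0.05. Of these, 784 rose and 518 fell by at least 1 on the log2 scale. Over all 14557 genes tested, 9184 (63.1%) had groups that did not overlap. Most list members named below were picked for a small adjusted p, so that separate groups among them follow from that choice. The median over all genes was 0.18, and after median scaling it was 0.07. The split moved with the scaling, from 67.3% of calls higher to 55.03% (4122 higher and 3368 lower). Quantile normalization gave 53.6% higher (3948 and 3421). Median scaling left 6766 genes called in the same direction and turned 0 calls round. Transcripts of cytosolic ribosomal proteins took 19.1% to 19.6% of all TPM with siControl and 15.6% to 16.9% with siGCDH, which moves with this shift, and its part in the result was not tested. Counts of gene groups in SK-Hep1 are given with those after median scaling beside them. List counts of differences between lines are from TPM as deposited only.

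**Figure D1:**
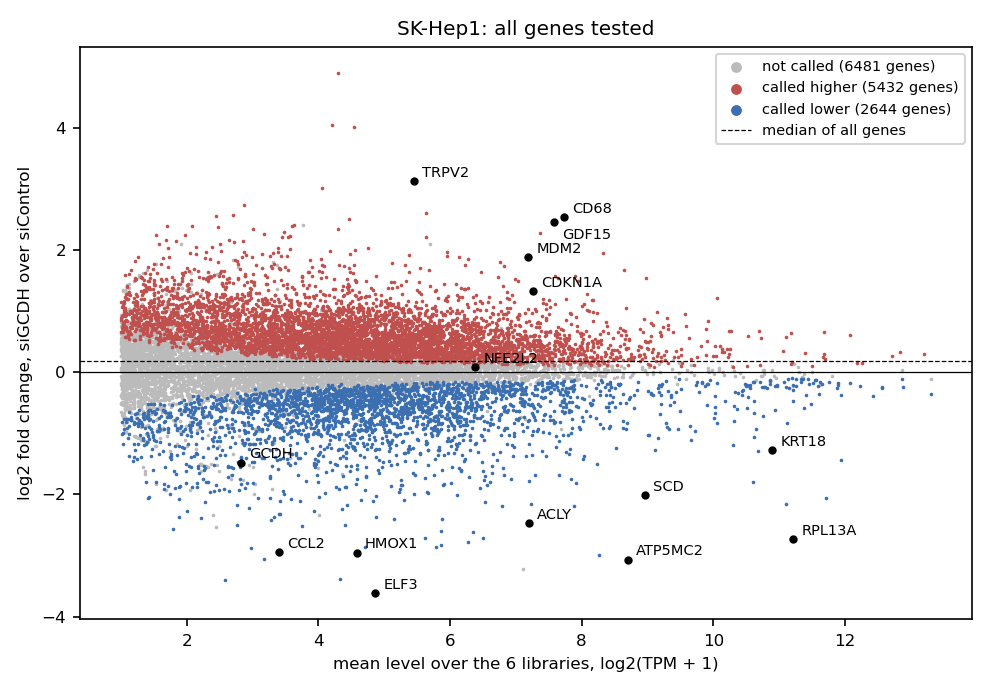
Log2 fold change of each of the 14557 genes (y axis, siGCDH over siControl) against its mean level over the 6 libraries (x axis, log2(TPM + 1)). Red points were called higher (5432), blue points lower (2644), and the dashed line is the median of all genes at 0.18. Black points mark genes named in the text, among them GCDH at -1.48.

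**Figure D2:**
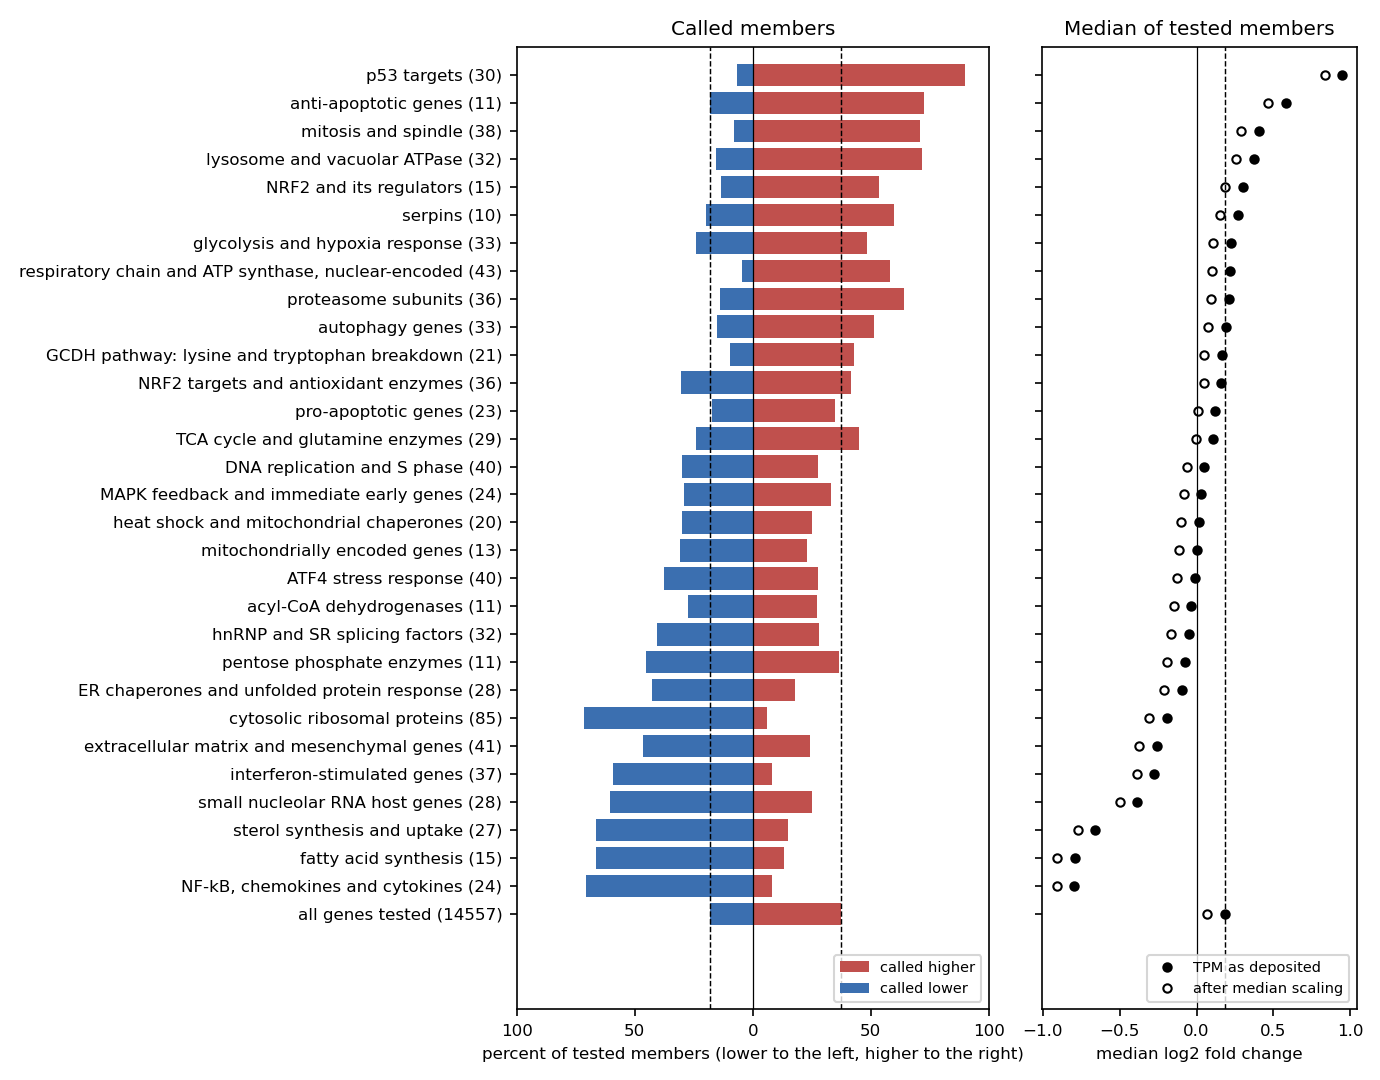
Left, percent of the tested members of each gene list with at least 10 tested members, cell type marker lists left out, called higher (red, to the right) or lower (blue, to the left), with the number tested in brackets and dashed lines at 37.3% and 18.2%, the shares over all genes. Right, the median log2 fold change of each list from TPM as deposited (filled) and after median scaling (open). Among the lists drawn, the p53 targets stand at the top with a median of 0.95 and the NF-kB list has the lowest with -0.80.

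Targets of p53 rose together. The transcription factor p53 answers DNA damage and other stress by switching on genes that stop the cell cycle, repair DNA, start apoptosis or limit p53 itself. Of the p53 list, 27 of 30 measured members rose, 2 fell and 1 did not pass the test; the median log2 fold change was 0.95, and the counts after median scaling were 26 higher and 2 lower. MDM2 (chr12:68808176-68850686, plus strand), the ubiquitin ligase that degrades p53, measured 58.5, 55.9 and 68.6 TPM with siControl and 213, 227 and 246 TPM with siGCDH. It rose in every library beyond the spread of the controls (log2 fold change 1.89, SE 0.09, limma adjusted p = 2.85e-06). CDKN1A encodes p21, which inhibits cyclin-dependent kinases and halts cells before S phase, and measured 84.6, 88.1 and 86.9 TPM with siControl and 221, 217 and 218 TPM with siGCDH. The 3 siGCDH values lie within a few TPM of each other and far above the 3 controls (log2 fold change 1.33, SE 0.04, limma adjusted p = 7.39e-07). DDB2, a damage sensor of nucleotide excision repair, rose from 39.8, 42.2 and 40.9 to 113, 100.2 and 109 TPM (log2 fold change 1.37, SE 0.06, limma adjusted p = 2.64e-06). The pro-apoptotic pore former BAX rose from 176, 167 and 180.3 to 398, 391 and 403 TPM (log2 fold change 1.18, SE 0.04, limma adjusted p = 1.05e-06). For neither gene did the groups overlap. GDF15, a secreted stress cytokine that p53 and ATF4 both induce, measured 56.9, 59.3 and 57.9 TPM with siControl and 334, 328 and 307 TPM with siGCDH, the fifth largest rise among genes with an approved symbol (log2 fold change 2.46, SE 0.05, limma adjusted p = 1.29e-07). The RNA-binding protein gene ZMAT3 rose from 5.76 to 19.1 TPM (log2 fold change 1.57) and the mTORC1 brake SESN2 from 8.103 to 29.8 TPM (1.76). The polo-like kinase gene PLK2 was 1 of the 2 falls, from 791 to 563 TPM (log2 fold change -0.49), and PLK3 had 13.5 and 16.9 TPM (log2 fold change 0.32, limma adjusted p = 0.0863), which was called without siControl replicate 2 (adjusted p = 0.0445). Some lists are also given among genes with a searched 3' UTR, split by a pair of 7-mers described further on. This was added once the data had been seen. The pair was chosen by these same fold changes, so that such splits are a description and no test. Over all searched genes 32.8% of holders were called lower and 29.3% higher, against 19.7% and 44.2% of the others. Of 28 searched p53 targets 5 hold either 7-mer, all 5 called higher, and of the 23 others 20 were higher and 2 lower.

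Pro-apoptotic genes were called at close to the shares over all genes. Of 23, 8 rose and 4 fell, and 11 did not pass. That is 34.8% higher and 17.4% lower, against 37.3% and 18.2% of all genes tested. After scaling, 6 were higher and 6 lower, so that this list has no direction apart from the scaling. TNFRSF10B, the death receptor for the ligand TRAIL, measured 64.9, 63.96 and 61.9 TPM with siControl and 126, 143 and 136 TPM with siGCDH (log2 fold change 1.08, SE 0.06, limma adjusted p = 6.47e-06). BBC3, which encodes the BH3 protein PUMA, rose from 14.2, 15.7 and 14.8 to 28.99, 28.7 and 26.98 TPM (log2 fold change 0.88, SE 0.07, limma adjusted p = 4.78e-05), and the death receptor FAS rose from 12.9 to 29.03 TPM (log2 fold change 1.10). All of BAX, BBC3, TNFRSF10B and FAS are p53 targets too. TNFRSF1A, the receptor for tumour necrosis factor, fell from 245 to 139 TPM (log2 fold change -0.81). Of 11 anti-apoptotic genes, 8 rose, 2 fell and 1 did not pass, with a median of 0.58 and 7 higher and 2 lower after scaling. BCL2L1, which encodes BCL-XL, rose from 68.00 to 109 TPM (log2 fold change 0.68) and MCL1 from 79.9 to 120.1 TPM (0.58). Survivin, the product of BIRC5, also acts in mitosis, and its gene rose from 68.4 to 115 TPM (log2 fold change 0.74). The NF-kB target BIRC3 fell from 34.5 to 19.3 TPM (log2 fold change -0.81).

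Mitotic transcripts rose. Of the mitosis and spindle list, 27 of 38 measured members rose, 3 fell and 8 did not pass the test; the median log2 fold change was 0.41, and the counts after median scaling were 25 higher and 3 lower. NDC80, the kinetochore protein that grips microtubules, measured 20.9, 17.7 and 18.1 TPM with siControl and 43.97, 43.9 and 44.6 TPM with siGCDH (log2 fold change 1.19, SE 0.08, limma adjusted p = 1.49e-05). KIF23, a motor of the midbody, rose from 44.9, 46.1 and 47.9 to 87.7, 93.4 and 93.8 TPM (log2 fold change 0.97, SE 0.06, limma adjusted p = 7.82e-06), and topoisomerase TOP2A rose from 116, 112 and 117 to 199, 223 and 238 TPM (log2 fold change 0.92, SE 0.07, limma adjusted p = 2.52e-05). No siGCDH library overlapped a control in any of them. The falls were CDC25B, from 38.3 to 20.8 TPM (log2 fold change -0.85), the cyclin gene CCNA2, from 32.4 to 22.8 TPM (log2 fold change -0.49), and CDCA8, from 32.5 to 26.3 TPM (log2 fold change -0.29). Replication genes were mixed. Of 40, 11 rose, 12 fell and 17 did not pass (7 and 16 after scaling). E2F1, a transcription factor of S phase entry, rose from 15.4 to 26.98 TPM (log2 fold change 0.77) and thymidylate synthase TYMS from 107 to 172 TPM (0.68), whereas UHRF1, which carries DNA methylation through replication, fell from 28.9, 32.1 and 30.96 to 9.96, 9.89 and 9.91 TPM (log2 fold change -1.54, SE 0.07, limma adjusted p = 3.6e-06) and the primase subunit PRIM1 fell from 16.8 to 7.86 TPM (log2 fold change -1.01). CCND1, cyclin D1 of the G1 phase and a member of the MAPK output list, measured 119, 121 and 115 TPM with siControl and 336, 364 and 369 TPM with siGCDH (log2 fold change 1.58, SE 0.05, limma adjusted p = 7.35e-07). That list had 8 rises and 7 falls among 24 genes, and 7 and 8 after scaling, so that its balance turns with the scaling, with the AP-1 subunit FOSL1 rising from 349 to 639.5 TPM (log2 fold change 0.87) and the receptor kinase EPHA2 falling from 75.6 to 49.1 TPM (log2 fold change -0.61).

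Lipid synthesis transcripts fell. Fatty acids are built from cytosolic acetyl-CoA by ACLY, ACACA and FASN, then elongated and desaturated, and cholesterol is built from the same acetyl-CoA through mevalonate. Both pathways are driven by the SREBP transcription factors. Of the fatty acid list, 2 of 15 measured members rose, 10 fell and 3 did not pass the test; the median log2 fold change was -0.79, and the counts after median scaling were 1 higher and 10 lower. ACLY (chr17:41866908-41930542, minus strand), the ATP citrate lyase that makes cytosolic acetyl-CoA, measured 243, 250.1 and 250.1 TPM with siControl and 39.9, 43.2 and 49.3 TPM with siGCDH. It fell to 17.8% of the siControl mean (log2 fold change -2.47, SE 0.08, limma adjusted p = 7.35e-07). SCD, the desaturase that forms oleate, measured 809, 778 and 807 TPM with siControl and 185, 203 and 203 TPM with siGCDH (log2 fold change -2.01, SE 0.05, limma adjusted p = 1.87e-07). FASN, fatty acid synthase, fell from 356, 388 and 387 to 146, 152 and 139 TPM (log2 fold change -1.37, SE 0.05, limma adjusted p = 1.4e-06) and the elongase ELOVL1 from 164, 166 and 166 to 54.6, 54.1 and 57.7 TPM (log2 fold change -1.56, SE 0.05, limma adjusted p = 7.35e-07). In each of these 4 genes the lowest control lies above the highest siGCDH library. The delta-5 desaturase FADS1 fell from 181 to 38.8 TPM (log2 fold change -2.20), the acyl-CoA synthetase ACSL3 from 151 to 42.7 TPM (-1.80) and the carboxylase ACACA from 56.3 to 32.1 TPM (-0.79). The rises were ELOVL6, from 33.6 to 43.02 TPM (log2 fold change 0.35), and ACSL4, from 119 to 142 TPM (log2 fold change 0.25), and the call of ACSL4 ended with scaling and when any 1 of 4 libraries was left out (siControl 1 and 2, siGCDH 2 and 3, adjusted p = 0.0573 to 0.0729).

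In the sterol list, 4 of 27 measured members rose, 18 fell and 5 did not pass the test; the median log2 fold change was -0.66, and the counts after median scaling were 3 higher and 22 lower. The isopentenyl isomerase IDI1 measured 104, 98.97 and 121 TPM with siControl and 31.7, 38.6 and 33.4 TPM with siGCDH (log2 fold change -1.61, SE 0.10, limma adjusted p = 1.03e-05). Its lowest control lies above its highest siGCDH library. FDPS, farnesyl diphosphate synthase, fell from 296 to 145 TPM (log2 fold change -1.03) and squalene epoxidase SQLE from 53.4 to 28.03 TPM (-0.91). SREBF2, the SREBP gene of the sterol branch, fell from 88.5 to 34.98 TPM (log2 fold change -1.32) and SREBF1 from 354 to 301 TPM (-0.23). Rises were the cholesterol exporter ABCA1, from 2.54 to 4.95 TPM (log2 fold change 0.75), PMVK, from 23.9 to 32.6 TPM (log2 fold change 0.43), TM7SF2, from 14.4 to 19.6 TPM (log2 fold change 0.42), and STARD4, from 60.1 to 72.6 TPM (log2 fold change 0.27), the last of which lost its call with scaling and when any 1 of 3 libraries was left out (siControl 1 and 2, siGCDH 3, adjusted p = 0.0521 to 0.077). Of 25 searched sterol genes 2 hold either 7-mer, and of the 23 others 3 were higher and 16 lower. Of 14 searched fatty acid genes 2 hold one, and of the 12 others 1 was higher and 9 lower.

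Promoters of these genes, from 250 bases before to 50 after the start in RefSeq (GRCh38.p14), were searched on both strands for CACCCCAC, the core letters of the sterol regulatory element, and for CCAAT, the NF-Y box. CACCCCAC occurred in 2 of 22 matched sterol genes and 0 of 14 matched fatty acid genes, against 2.45% of 10421 promoters of tested genes. CCAAT occurred in 16 of 22 and 7 of 14, against 36.7%. The 2 sterol promoters with CACCCCAC were those of SREBF2, which fell, and ABCA1, which rose. The SREBF2 promoter is shown because its gene fell with the targets of its own product, with the CACCCCAC letters in capitals. A match of letters is a description and not a binding site.
SREBF2, chr22:41832855-41833154, plus strand: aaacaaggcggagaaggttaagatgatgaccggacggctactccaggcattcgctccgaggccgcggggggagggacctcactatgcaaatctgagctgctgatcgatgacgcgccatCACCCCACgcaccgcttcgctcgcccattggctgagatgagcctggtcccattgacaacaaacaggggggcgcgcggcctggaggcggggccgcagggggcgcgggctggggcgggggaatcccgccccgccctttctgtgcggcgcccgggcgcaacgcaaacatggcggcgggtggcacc

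**Figure D3:**
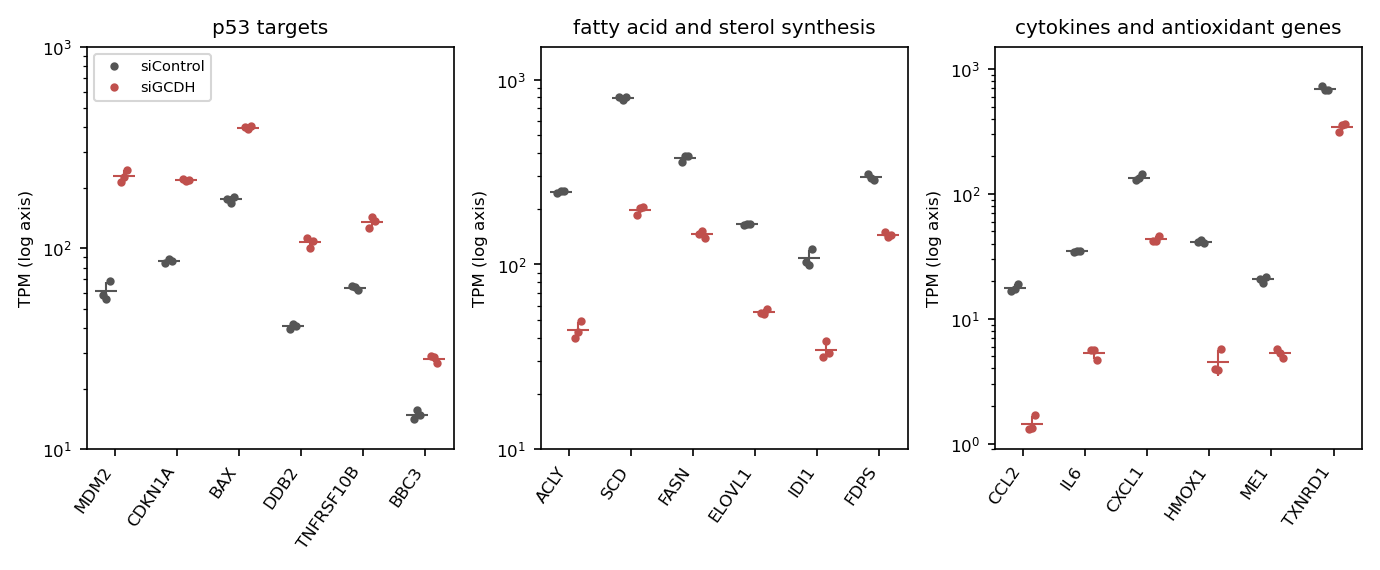
TPM of single libraries (points, log axis) with the mean and SD of each group (bar and line) for 6 p53 targets, 6 genes of lipid synthesis and 6 cytokine or antioxidant genes. In all 18 genes the 3 siGCDH points (red) are apart from the 3 siControl points (grey), above them in the left panel and below them in the other panels. The genes were taken from list members with the smallest adjusted p, so that this separation follows from the choice. Over all genes tested 63.1% had groups that did not overlap.

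Chemokine and cytokine transcripts fell. NF-kB is the transcription factor that switches on inflammatory cytokines, chemokines and adhesion molecules. Of this list, 2 of 24 measured members rose, 17 fell and 5 did not pass the test; the median log2 fold change was -0.80, and the counts after median scaling were 1 higher and 18 lower. CCL2 (chr17:34255218-34257203, plus strand), a chemokine that draws monocytes, measured 16.6, 17.5 and 19.1 TPM with siControl and 1.32, 1.33 and 1.69 TPM with siGCDH. It fell to 8.2% of control (log2 fold change -2.94, SE 0.12, limma adjusted p = 1.66e-06). The cytokine IL6 measured 34.1, 35.1 and 35.1 TPM with siControl and 5.67, 5.58 and 4.72 TPM with siGCDH (log2 fold change -2.50, SE 0.09, limma adjusted p = 9.45e-07) and the neutrophil chemokine CXCL1 129, 133 and 143 TPM with siControl and 42.1, 41.6 and 46.2 TPM with siGCDH (log2 fold change -1.62, SE 0.06, limma adjusted p = 1.51e-06). The 3 genes shared the pattern of tight controls and tight, separate siGCDH values. CXCL6, a related chemokine outside the list, was among the largest falls, from 35.6, 34.7 and 37.1 to 2.69, 2.35 and 2.49 TPM (log2 fold change -3.39, SE 0.09, limma adjusted p = 3.23e-07). The adhesion molecule gene ICAM1 fell from 34.6 to 11.5 TPM (log2 fold change -1.51), the kinase gene IRAK2 from 14.7 to 4.24 TPM (-1.58), CXCL8 from 67.00 to 38.3 TPM (-0.79) and NFKB1 itself from 23.6 to 16.6 TPM (-0.49). IL1B, which encodes interleukin-1 beta, went the other way and measured 166, 162 and 167 TPM with siControl and 354, 366 and 359 TPM with siGCDH (log2 fold change 1.12, SE 0.04, limma adjusted p = 8.44e-07). RELA was the other rise, from 62.2 to 70.4 TPM (log2 fold change 0.18), a call that ended with scaling and when any 1 of 3 libraries was left out (siControl 2, siGCDH 2 and 3, adjusted p = 0.0551 to 0.0633). Of 23 searched members 3 hold either 7-mer, and of the 20 others 2 were higher and 15 lower.

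Interferon-stimulated genes also fell. These antiviral and antigen-presentation genes are switched on by interferon signalling. Of them, 3 of 37 measured members rose, 22 fell and 12 did not pass the test; the median log2 fold change was -0.27, and the counts after median scaling were 2 higher and 25 lower. OAS3, a sensor of double-stranded RNA, measured 22.7, 23.8 and 22.3 TPM with siControl and 7.81, 10.3 and 9.15 TPM with siGCDH (log2 fold change -1.25, SE 0.11, limma adjusted p = 4.91e-05), and IFI44 measured 10.9, 10.7 and 10.7 TPM with siControl and 4.66, 4.38 and 4.52 TPM with siGCDH (log2 fold change -1.09, SE 0.09, limma adjusted p = 5.56e-05). The transcription factor gene IRF1 fell from 71.4 to 39.4 TPM (log2 fold change -0.84) and the antigen-presenting HLA-B from 198 to 114 TPM (-0.79). Neither OAS3 nor IFI44 had overlapping groups. RIGI, another RNA sensor, fell from 8.7 to 4.52 TPM (log2 fold change -0.81). The rises were ISG15, from 16.1 to 29.1 TPM (log2 fold change 0.81), IFIT5, from 15.6 to 20.7 TPM (log2 fold change 0.39), and B2M, from 2204 to 2466 TPM (log2 fold change 0.16), which lost its call with scaling. Of 35 searched members 7 hold either 7-mer, and of the 28 others 2 were higher and 17 lower.

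NFE2L2 itself, the NRF2 gene, was not called. It measured 76.1, 81.8 and 81.2 TPM with siControl and 82.3, 83.03 and 89.97 TPM with siGCDH (log2 fold change 0.09, SE 0.06, limma adjusted p = 0.212), and although the groups did not overlap, the lowest siGCDH value exceeds the highest control by less than 1 TPM. Among NRF2 and its regulators, 8 of 15 measured members rose, 2 fell and 5 did not pass the test, with 6 higher and 2 lower after scaling. MAFG, the small MAF partner of NRF2, rose from 13.6 to 28.04 TPM (log2 fold change 0.99), CUL3, the ubiquitin ligase scaffold that serves KEAP1, from 63.01 to 91.8 TPM (0.53), the related factor NFE2L1 from 105 to 154 TPM (0.55), the KEAP1-binding receptor SQSTM1 from 418 to 512 TPM (0.29) and KEAP1 from 27.3 to 33.7 TPM (0.30). KEAP1 lost its call with scaling and when any 1 of 4 libraries was left out (siControl 2 and 3, siGCDH 1 and 2, adjusted p = 0.108 to 0.129).

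NRF2 targets and antioxidant enzymes, taken as 1 list, moved in both directions. Of the list, 15 of 36 measured members rose, 11 fell and 10 did not pass the test; the median log2 fold change was 0.16, and the counts after median scaling were 9 higher and 13 lower. Whether more of them rose or fell thus depends on the scaling. HMOX1 (chr22:35380361-35394214, plus strand), the heme oxygenase, measured 40.9, 43.04 and 40.2 TPM with siControl and 3.98, 3.86 and 5.78 TPM with siGCDH. Every siGCDH value lay far below the controls (log2 fold change -2.95, SE 0.13, limma adjusted p = 2.66e-06). ME1, the cytosolic malic enzyme that forms NADPH, measured 20.9, 19.4 and 21.6 TPM with siControl and 5.76, 5.36 and 4.89 TPM with siGCDH (log2 fold change -1.77, SE 0.09, limma adjusted p = 5.64e-06). Thioredoxin reductase TXNRD1 fell from 735, 676 and 677 to 315, 355 and 359 TPM (log2 fold change -1.02, SE 0.06, limma adjusted p = 9.47e-06) and the mitochondrial superoxide dismutase SOD2 from 173, 178 and 158 to 72.9, 75.8 and 73.6 TPM (log2 fold change -1.18, SE 0.06, limma adjusted p = 3.95e-06). The groups of these 4 genes stood clear of each other. The cystine transporter SLC7A11 fell from 8.797 to 2.05 TPM (log2 fold change -1.68). Ferritin light chain FTL rose from 3435 to 5231 TPM (log2 fold change 0.61) and AKR1C1 from 1.71 to 4.18 TPM (0.94), at a low level. In the pentose phosphate pathway, which supplies NADPH and ribose, 4 of 11 enzymes rose and 5 fell (3 and 5 after scaling). PGD, an NADPH-forming enzyme of the pathway, fell from 181 to 123 TPM (log2 fold change -0.56), and transketolase TKT fell from 924 to 483 TPM (log2 fold change -0.94). The ribose isomerase RPIA rose from 24.04, 23.5 and 23.5 to 50.3, 45.5 and 43.99 TPM (log2 fold change 0.94, SE 0.07, limma adjusted p = 2.59e-05) and TIGAR, a p53-induced phosphatase, rose from 29.3 to 56.1 TPM (log2 fold change 0.92). Of 34 searched members of the list of NRF2 targets and antioxidant enzymes 5 hold either 7-mer, and of the 29 others 13 were higher and 7 lower.

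The ATF4 stress response moved in both directions. ATF4 is the transcription factor made when translation slows under lack of amino acids or misfolded proteins, and ATF3, DDIT3 (CHOP), CHAC1 and TRIB3 are among its known targets. ATF4 measured 369, 369.8 and 378 TPM with siControl and 392, 376 and 378 TPM with siGCDH (log2 fold change 0.04, SE 0.04, limma adjusted p = 0.398), with overlapping groups. ATF3 had 8.697 and 6.5 TPM (log2 fold change -0.41, limma adjusted p = 0.1), and 1 siGCDH library at 8.92 TPM lay among the controls. Without that library, siGCDH replicate 3, ATF3 was called lower (log2 fold change -0.62, adjusted p = 0.00602), as it was after median scaling (-0.52, adjusted p = 0.0423). CHAC1 was low in both groups, with 2.39 and 3.01 TPM (log2 fold change 0.24, limma adjusted p = 0.273). DDIT3 rose from 48.5, 40.4 and 43.7 to 65.5, 75.01 and 70.02 TPM (log2 fold change 0.66, SE 0.08, limma adjusted p = 0.000366) and the pseudokinase TRIB3 fell from 37.2, 35.9 and 36.97 to 22.6, 24.9 and 23.6 TPM (log2 fold change -0.61, SE 0.07, limma adjusted p = 0.000155). Of the 40 ATF4 genes measured, 11 rose, 15 fell and 14 did not pass, with a median of -0.01 and 10 higher and 16 lower after scaling. PPP1R15A, which restarts translation by recruiting a phosphatase to eIF2, measured 42.5, 40.97 and 42.2 TPM with siControl and 133, 128 and 137 TPM with siGCDH (log2 fold change 1.64, SE 0.05, limma adjusted p = 7.35e-07). The glutamine transporter SLC1A5 measured 108, 111 and 111 TPM with siControl and 25.2, 28.98 and 25.3 TPM with siGCDH (log2 fold change -2.02, SE 0.07, limma adjusted p = 8.44e-07) and the leucine transporter SLC7A5 56.4, 60.01 and 58.8 TPM with siControl and 14.8, 16.00 and 13.8 TPM with siGCDH (log2 fold change -1.91, SE 0.07, limma adjusted p = 1.4e-06). The glycine carrier SLC6A9 fell from 4.76 to 0.577 TPM (log2 fold change -1.88).

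Chaperones and quality control factors of the endoplasmic reticulum included more falls than rises. Of 28, 5 rose, 12 fell and 11 did not pass, and 3 were higher and 16 lower after scaling. Calreticulin CALR fell from 704, 726 and 724 to 432, 457 and 447 TPM (log2 fold change -0.69, SE 0.04, limma adjusted p = 5.32e-06), HSPA5 (BiP), the master chaperone of the compartment, fell from 260.2 to 163 TPM (log2 fold change -0.67) and HSP90B1 from 878 to 563 TPM (-0.64). The co-chaperone DNAJB11 rose from 53.9 to 109 TPM (log2 fold change 1.00). Of 20 cytosolic and mitochondrial chaperones, 5 rose and 6 fell (2 and 7 after scaling), with the constitutive HSPA8 falling from 1248 to 837 TPM (log2 fold change -0.57), HSP90AB1 from 1746 to 1162 TPM (-0.59) and the mitochondrial chaperonin HSPD1 from 500.2 to 289 TPM (-0.79).

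Nuclear-encoded genes of the respiratory chain lay close to the median of all genes. This chain of complexes in the inner mitochondrial membrane passes electrons to oxygen and drives ATP synthase. Of its list, 25 of 43 measured members rose, 2 fell and 16 did not pass the test; the median log2 fold change was 0.22, and the counts after median scaling were 15 higher and 5 lower. The median of all genes was 0.18, and 22 of the 43 members lay above it. COX7A2 of complex IV measured 281, 256 and 251 TPM with siControl and 426, 414 and 386 TPM with siGCDH (log2 fold change 0.64, SE 0.06, limma adjusted p = 6.96e-05) and NDUFA4 rose from 341 to 498 TPM (log2 fold change 0.55). NDUFA2 of complex I was 1 of the 2 falls, from 86.7 to 49.3 TPM (log2 fold change -0.80). ATP5MC2, a gene for the proton-carrying c subunit of ATP synthase, is not in the list and was the fourth largest fall among genes with an approved symbol. It measured 747, 757 and 727 TPM with siControl and 92.2, 91.5 and 80.3 TPM with siGCDH, 11.8% of the control mean (log2 fold change -3.07, SE 0.06, limma adjusted p = 1.29e-07). Of 13 mitochondrially encoded genes, 3 rose and 4 fell (2 and 5 after scaling), with MT-ND1 rising from 1769 to 2652 TPM (log2 fold change 0.59) and MT-ATP6 falling from 8193 to 6958 TPM (log2 fold change -0.23). Their summed share of TPM was 5.62% to 6.33% with siControl and 5.79% to 6.11% with siGCDH, ranges that overlap. Among 29 enzymes of the citric acid cycle and glutamine use, 13 rose and 7 fell, and 9 and 10 did so after scaling, so that the balance turns with the scaling. Glutamate dehydrogenase GLUD1, which feeds glutamate into the cycle, measured 83.5, 82.2 and 89.1 TPM with siControl and 32.3, 32.02 and 33.6 TPM with siGCDH (log2 fold change -1.35, SE 0.06, limma adjusted p = 2.06e-06) and citrate synthase CS fell from 193 to 125 TPM (log2 fold change -0.63), while SUCLG1 rose from 83.8 to 120.2 TPM (log2 fold change 0.51) and SDHA from 89.5 to 125 TPM (0.47).

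Glycolysis and hypoxia genes numbered 16 higher and 8 lower of 33 (11 and 10 after scaling). The glucose transporter SLC2A1 measured 70.4, 65.4 and 63.2 TPM with siControl and 164, 162 and 171 TPM with siGCDH (log2 fold change 1.31, SE 0.06, limma adjusted p = 2.04e-06), whereas the enolase ENO1 fell from 2174, 2109 and 2049.9 to 1039, 1019.6 and 990.3 TPM (log2 fold change -1.05, SE 0.03, limma adjusted p = 8.44e-07) and lactate dehydrogenase LDHA from 2839 to 1594 TPM (-0.83). Adrenomedullin ADM, a vasoactive peptide induced by hypoxia, fell from 88.9, 97.01 and 90.6 to 23.3, 24.9 and 26.7 TPM (log2 fold change -1.85, SE 0.07, limma adjusted p = 1.28e-06). Each of these 4 genes had groups that did not overlap. Of 7 NAD-dependent deacylases, 2 rose and 2 fell (2 and 3 after scaling). SIRT1 fell from 16.4 to 11.03 TPM (log2 fold change -0.54), SIRT2 rose from 38.9 to 52.9 TPM (log2 fold change 0.43) and SIRT7 rose from 25.1 to 38.2 TPM (log2 fold change 0.59). SIRT6 fell from 16.8 to 13.2 TPM (log2 fold change -0.32), a call lost without siControl replicate 2, siGCDH replicate 2 or siGCDH replicate 3 (adjusted p = 0.0782, 0.0567 and 0.0764).

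Lysosomal genes rose. Lysosomes digest material delivered by endocytosis and autophagy in a lumen acidified by the vacuolar ATPase. Of that list, 23 of 32 measured members rose, 5 fell and 4 did not pass the test; the median log2 fold change was 0.37, and the counts after median scaling were 18 higher and 5 lower. The protease gene CTSB measured 508, 523 and 516 TPM with siControl and 995, 1000.3 and 1014 TPM with siGCDH (log2 fold change 0.96, SE 0.03, limma adjusted p = 8.27e-07), the pump subunit ATP6V1F rose from 157 to 243 TPM (log2 fold change 0.62) and the membrane protein LAMP2 from 134 to 213 TPM (0.66). The protease TPP1 fell from 68.5, 61.5 and 63.4 to 18.1, 19.8 and 21.7 TPM (log2 fold change -1.65, SE 0.08, limma adjusted p = 4.11e-06) and the catalytic pump subunit ATP6V1A from 25.9 to 11.6 TPM (-1.09). CD68, a lysosomal membrane protein best known from macrophages, was the fourth largest rise among genes with an approved symbol and measured 58.4, 60.9 and 65.1 TPM with siControl and 349, 370.1 and 366 TPM with siGCDH (log2 fold change 2.54, SE 0.05, limma adjusted p = 1.29e-07). Of the 6 immune cell markers, CD14 had 3.0 and 2.703 TPM (log2 fold change -0.11, limma adjusted p = 0.636) and the other 4 had means under 1 TPM. Of 33 autophagy genes, 17 rose and 5 fell (14 and 7 after scaling), with ATG4A and WIPI2 higher (1.17 and 0.65 as log2 fold changes) and ATG9A and WIPI1 lower (-1.40 and -1.08). Of 36 proteasome genes, 23 rose and 5 fell, and 13 and 10 did so after scaling. The subunit PSMD2 rose from 215, 194 and 206 to 366, 372 and 364 TPM (log2 fold change 0.84, SE 0.05, limma adjusted p = 6.4e-06), while PSMD11 fell from 98.4, 95.1 and 103 to 42.2, 50.2 and 43.9 TPM (log2 fold change -1.11, SE 0.08, limma adjusted p = 1.76e-05).

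Ribosomal protein transcripts showed a broad small shift and a few deep falls. This list and that of the small nucleolar RNA hosts were added after values were seen. Of 85 cytosolic ribosomal protein genes, 61 were called lower and 5 higher, with a median of -0.19, and 70 and 3 after median scaling. Quantile normalization gave 24 lower and 18 higher, and the fit without a mean-variance trend 37 lower, so that neither the count nor the common direction holds across scalings. RPL13A (chr19:49487554-49492308, plus strand) of the large subunit measured 4184, 4181 and 4036 TPM with siControl and 674, 602 and 589 TPM with siGCDH (log2 fold change -2.73, SE 0.05, limma adjusted p = 1.29e-07). RPL6 measured 3552, 3574 and 3701 TPM with siControl and 847, 782 and 797 TPM with siGCDH (log2 fold change -2.16, SE 0.04, limma adjusted p = 1.29e-07), RPS14 of the small subunit 2593, 2344 and 2303 TPM with siControl and 727, 691 and 668 TPM with siGCDH (log2 fold change -1.79, SE 0.05, limma adjusted p = 6.47e-07) and the paralog RPL22L1 590.5, 522 and 522 TPM with siControl and 64.7, 70.96 and 67.3 TPM with siGCDH (log2 fold change -2.99, SE 0.06, limma adjusted p = 1.29e-07). After these 4 the next deepest fall was that of RPL14, with a log2 fold change of -0.72. Ribosomal protein genes have many processed pseudogenes, and RPL13AP5, which copies RPL13A and fell by 2.86 on the log2 scale, can share its reads. RPS27L, a p53-induced paralog, rose from 443 to 820.0 TPM (log2 fold change 0.89). Host genes of small nucleolar RNAs, whose introns hold the guides that modify ribosomal RNA, were lower in 17 of 28 and higher in 7 (18 and 6 after scaling). SNHG29 measured 5417, 5412 and 5405 TPM with siControl and 1308, 1269.8 and 1308 TPM with siGCDH (log2 fold change -2.06, SE 0.03, limma adjusted p = 2.08e-08), GAS5 fell from 774 to 366 TPM (log2 fold change -1.08) and SNHG7 from 68.7 to 30.2 TPM (-1.16). Of 32 hnRNP and SR splicing factors, 9 rose and 13 fell (6 and 18 after scaling), with HNRNPA1 falling from 2097 to 1105 TPM (log2 fold change -0.92) and HNRNPUL1 rising from 178 to 261 TPM (log2 fold change 0.55).

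Matrix genes moved unevenly. Of the extracellular matrix and mesenchymal list, 10 of 41 measured members rose, 19 fell and 12 did not pass the test; the median log2 fold change was -0.26, and the counts after median scaling were 8 higher and 23 lower. Fibronectin FN1 measured 376, 356 and 396 TPM with siControl and 105, 108 and 105 TPM with siGCDH (log2 fold change -1.82, SE 0.05, limma adjusted p = 4.49e-07), thrombospondin THBS1 fell from 516 to 219 TPM (log2 fold change -1.23) and the protease inhibitor TIMP2 from 318 to 133 TPM (-1.25). The membrane-bound protease MMP14 rose from 104, 108 and 104 to 222, 241 and 233 TPM (log2 fold change 1.13, SE 0.05, limma adjusted p = 1.9e-06). Of 36 searched members 8 hold either 7-mer, with 6 falls and 0 rises, and of the 28 others 11 fell and 10 rose. Over all searched genes 32.8% of holders were called lower and 29.3% higher, against 19.7% and 44.2% of the others. The pair was chosen for the low fold changes of its holders, so that this split is no test. Fibroblast and smooth muscle markers ran from 309 to 325 TPM in sum with siControl and from 148 to 158 TPM with siGCDH. Of 8 measured, 6 fell and 2 rose, also after scaling. Lumican LUM, a small matrix proteoglycan, measured 148, 151 and 169 TPM with siControl and 22.5, 22.3 and 24.4 TPM with siGCDH (log2 fold change -2.71, SE 0.07, limma adjusted p = 3.23e-07) and collagen COL3A1 fell from 68.2 to 29.6 TPM (log2 fold change -1.18), while smooth muscle actin ACTA2 rose from 14.5, 18.4 and 18.7 to 52.6, 51.1 and 45.03 TPM (log2 fold change 1.48, SE 0.11, limma adjusted p = 2.73e-05). Their part in the matrix result was not tested.

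Epithelial and vascular transcripts of the line also shifted. Summed epithelial markers ran from 6403 to 6688 TPM with siControl and from 3474 to 3620 TPM with siGCDH, a fall that lay mostly in KRT8 and KRT18. Other members went both ways. CLDN7 rose from 96.0 to 131.9 TPM and EPCAM from 8.72 to 13.14 TPM, while KRT7 fell from 118.9 to 67.7 TPM. KRT8 measured 2379.9, 2309.9 and 2262 TPM with siControl and 944, 951 and 953 TPM with siGCDH (log2 fold change -1.29, SE 0.03, limma adjusted p = 1.87e-07) and its partner KRT18 1134, 1097 and 1095 TPM with siGCDH (log2 fold change -1.28, SE 0.03, limma adjusted p = 2e-07), whereas the keratin KRT19 had 1262 and 1275 TPM (log2 fold change 0.01, limma adjusted p = 0.766), and was called higher with quantile normalization (0.16, adjusted p = 0.0168). ELF3 (chr1:202007945-202017188, plus strand), an ETS transcription factor of epithelial cells, measured 53.03, 51.2 and 53.4 TPM with siControl and 4.54, 3.05 and 2.71 TPM with siGCDH, 6.5% of the control mean and the deepest fall among genes with an approved symbol (log2 fold change -3.62, SE 0.15, limma adjusted p = 1.59e-06). Integrin subunit ITGB4, the laminin receptor of epithelial cells, fell from 227 to 65.1 TPM (log2 fold change -1.79). Summed endothelial markers ran from 1160 to 1237 TPM with siControl and from 645 to 663 TPM with siGCDH, most of it CAV1, the coat protein of caveolae, which fell from 1109 to 572 TPM (log2 fold change -0.95). Endoglin ENG fell from 41.4 to 15.3 TPM (log2 fold change -1.38), while MCAM and the nitric oxide synthase NOS3 rose (0.50 and 1.01 as log2 fold changes). The summed hepatocyte markers were 19.5 to 20.1 TPM with siControl and 43.5 to 45.4 TPM with siGCDH, most of it SERPINA1 (alpha-1-antitrypsin) in the siGCDH libraries, which measured 9.51, 8.4 and 10.9 TPM with siControl and 33.7, 34.7 and 36.2 TPM with siGCDH (log2 fold change 1.77, SE 0.10, limma adjusted p = 6.79e-06). HMGA2, a chromatin protein of embryonic cells, fell from 131 to 46.9 TPM (log2 fold change -1.46). Of the smaller lists, 3 of 6 endothelial, 2 of 5 hepatocyte, 2 of 7 epithelial, 6 of 10 serpin, 2 of 7 histone and 1 of 7 oncofetal genes measured were called higher. In the same order 2, 1, 4, 2, 3 and 2 were called lower. After scaling 3, 2, 2, 5, 1 and 1 were higher and 2, 1, 4, 3, 3 and 3 lower. The summed melanocyte markers were 1.89 to 2.95 TPM with siControl and 2.71 to 2.97 TPM with siGCDH.

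The largest changes were read from called genes that reached 5 TPM in 1 of the groups, carried an approved symbol and had groups that did not overlap. TRPV2 (chr17:16415542-16437003, plus strand), a calcium-permeable cation channel, led the rises and measured 8.07, 6.61 and 9.19 TPM with siControl and 79.2, 76.5 and 76.1 TPM with siGCDH (log2 fold change 3.14, SE 0.11, limma adjusted p = 8.44e-07). DMBT1, a secreted scavenger protein of mucosal surfaces, measured 2.72, 2.92 and 2.27 TPM with siControl and 27.6, 28.9 and 29.2 TPM with siGCDH (log2 fold change 3.03, SE 0.10, limma adjusted p = 8.44e-07). The Notch-binding membrane protein DNER rose from 52.5, 55.1 and 57.1 to 275, 269 and 273 TPM (log2 fold change 2.29, SE 0.05, limma adjusted p = 1.29e-07), ITGB2, the beta subunit of leukocyte integrins, from 0.783 to 8.33 TPM (2.39), ADTRP from 2.77 to 17.5 TPM (2.303) and the zinc-activated channel ZACN from 1.0 to 10.02 TPM (2.58). In TRPV2, DMBT1 and DNER the siGCDH libraries lay close together and far above the controls. Separate groups and a large change were conditions of being named here. The other rises were CD68, GDF15, FMC1 (2.35 as log2 fold change), the long non-coding LINC02298 (2.40) and 2 antisense genes, PDE7B-AS1 (2.26) and NALT1 (2.24), whose reads cannot be told apart from those of their partner genes, as the strand setting is not given. The falls were ELF3, CXCL6, ATP5MC2, RPL22L1, HMOX1, CCL2 and 6 more. PADI2, which converts arginine to citrulline in proteins, fell from 12.7, 12.9 and 12.7 to 1.22, 0.81 and 0.66 TPM, and the membrane-binding protein CPNE1 from 89.9, 114 and 98.3 to 15.2, 15.5 and 9.75 TPM (log2 fold change -2.83, SE 0.17, limma adjusted p = 9.69e-06). PEG10, an imprinted gene that stems from a retrotransposon, fell from 129.8, 131 and 141 to 19.9, 16.2 and 20.5 TPM (log2 fold change -2.77, SE 0.09, limma adjusted p = 8.44e-07). SNORD83A, which lies inside another gene, measured 6.06, 12.5 and 11.3 TPM with siControl and is listed at 0 with siGCDH. RPL13AP5 and the antisense gene PKD1L1-AS1 (log2 fold changes -2.86 and -2.86) complete the 12. These genes and SNORD83A are uncertain.

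Short sequences in 3' untranslated regions (3' UTRs) were compared with the fold changes, since small RNAs are known to lower messages that match a few of their bases. The search covered 10015 genes that reached a mean of 5 TPM and had 50 or more bases of 3' UTR. Their log2 fold changes were first fitted on 3' UTR length, its GC content and the mean TPM. All 7-mers held by at least 50 genes were then ranked by the standardized mean of what this fit left over in their holders. TCCTCAA ranked lowest and ATCCTCA second lowest of 16149 in SK-Hep1. The rank chose them, so their values are a description with no test. Of 1180 genes with TCCTCAA, 35.1% were called lower and 28.0% higher, with a median log2 fold change of -0.04, against 20.4% lower and a median of 0.17 among genes without it. Of 1869 genes with either 7-mer, 32.8% were called lower and 29.3% higher, and 8.0% fell by at least 1, against 19.7%, 44.2% and 2.8% of the 8146 genes with neither. Holders have longer 3' UTRs, with a median of 3052 bases against 1101. The ranking was adjusted for length, whereas the shares and medians given here were not. The 278 genes with ATCCTCAA, which joins the pair, had 39.9% called lower.

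The same pair of 7-mers was read in the other lines. In the libraries labelled SKBR3, TCCTCAA and ATCCTCA were again lowest and second lowest, of 16172 ranked, whereas in A375 batch 2 they ranked 3076 and 1156 of 16155 and ACTGAGA ranked lowest. In SK-Hep1, ACTGAGA ranked 4683, and 21.5% of its 1403 holders were called lower against 22.2% of genes without it. Of the 12 largest falls, 9 had a searched 3' UTR and 5 of these held either 7-mer. Of the 12 largest rises 7 were searched and 0 held one. Over all 10015 searched genes 18.7% held either. The pair was chosen by these same fold changes, so that the counts are a description and no test. Sites are shown for genes with large falls described above, from GRCh38 with GENCODE 29, 10 bases on each side in lower case and the 7-mer in capitals.
ELF3, chr1:202015581-202015607, plus strand: atctggtgccTCCTCAAacccagtctc
ELF3, chr1:202016925-202016951, plus strand: tctaacctaaTCCTCAAtcgattccag
CXCL6, chr4:73838549-73838575, plus strand: catcatttagTCCTCAAaatatatata
HMOX1, chr22:35393836-35393862, plus strand: gcccttcagcATCCTCAgttcctgcag
RPL22L1, chr3:170865517-170865543, minus strand: gtctcagagcATCCTCAtctctttctc
CPNE1, chr20:35626201-35626227, minus strand: ctgtggcaagTCCTCAAtcctgtgtcc
LUM, chr12:91103824-91103850, minus strand: atcttaatgtTCCTCAAagcttggatt
TPP1, chr11:6614319-6614345, minus strand: tgccttagatTCCTCAAtaagatgctg
ME1, chr6:83210540-83210566, minus strand: gtcaagagttTCCTCAAaatagttatt
GLUD1, chr10:87051295-87051321, minus strand: ggtggcatggTCCTCAAgtgagttctt

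A site did not go with a fall in every gene. MDM2, SERPINA1, MCL1 and CUL3 hold a 7-mer of the pair and rose, and a site of each is given for comparison. ALDH7A1 holds both 7-mers and also rose (log2 fold change 0.80). ACLY, SCD, IL6, CCL2 and RPL13A were among the deepest falls and hold neither. GCDH itself holds ATCCTCA once and ACTGAGA once, both in its coding sequence, and these sites close the set. The siRNA sequences were not compared with them.
MDM2, chr12:68843925-68843951, plus strand: cctttggaggTCCTCAAagcattattg
SERPINA1, chr14:94378421-94378447, minus strand: tgcctctcgcTCCTCAAcccctcccct
MCL1, chr1:150576708-150576734, minus strand: aatatggataTCCTCAAttcttaagac
CUL3, chr2:224471087-224471113, minus strand: tcatttctagTCCTCAAagcagaaata
GCDH, chr19:12891886-12891912, plus strand: cacagatgagATCCTCAtcagggacac
GCDH, chr19:12897357-12897383, plus strand: agacatgctcACTGAGAttaccctggg

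**Figure D4:**
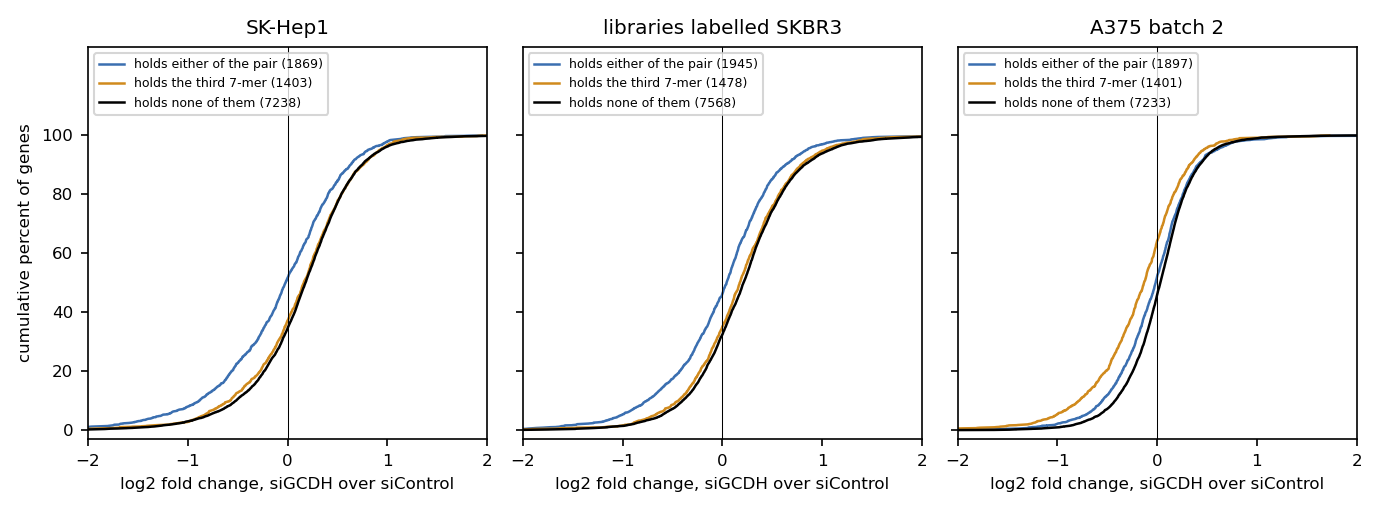
Cumulative percent of genes (y axis) by log2 fold change (x axis, siGCDH over siControl) for genes whose 3' UTR holds TCCTCAA or ATCCTCA (blue), ACTGAGA (orange) or none of them (black), with gene numbers in brackets. The blue curve lies to the left in SK-Hep1 (1869 genes) and in the libraries labelled SKBR3, and the orange curve lies furthest to the left in A375 batch 2.

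The response of SK-Hep1 was set against those of A375 batch 2 and of the libraries labelled SKBR3, which used the same kit, by testing the difference between the log2 fold changes (SK-Hep1 minus the other line) on 12 libraries. Against A375 batch 2 the effect was higher in SK-Hep1 for 4485 genes (28.8% of 15548) and lower for 2698 (17.4%), and after scaling for 3547 and 3391. Against the libraries labelled SKBR3 it was higher for 2384 genes (14.5% of 16480) and lower for 4120 (25.0%), and after scaling for 3426 and 3201, where the split turns round.

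ATF4 and its targets differed from A375 batch 2. ATF4 went from 315 ± 0.98 to 595 ± 5.08 TPM in A375 batch 2 and was flat in SK-Hep1 (difference -0.88, SE 0.04, limma adjusted p = 2.34e-08). ATF3 went from 11.6 ± 0.405 to 54.8 ± 3.19 TPM there (difference -2.55, SE 0.21, limma adjusted p = 3.05e-06), and CHAC1 (difference -1.47, SE 0.26, limma adjusted p = 0.000822), DDIT3 (difference -0.69, SE 0.15, limma adjusted p = 0.00271) and TRIB3 (difference -0.85, SE 0.08, limma adjusted p = 9.8e-06) also had lower effects in SK-Hep1. The effect on NFE2L2 was lower too (difference -0.25, SE 0.07, limma adjusted p = 0.0143). HMOX1 went from 40.02 ± 1.97 to 86.2 ± 2.62 TPM in A375 batch 2, against its fall in SK-Hep1 (difference -4.04, SE 0.15, limma adjusted p = 9.5e-09). The mitotic list also differed, with 31 of 38 members higher and 1 lower in SK-Hep1 than in A375 batch 2, where its own median was -0.29. PRR11, a gene of mitotic cells, went from 53.3 ± 1.28 to 13.1 ± 0.879 TPM in A375 batch 2 (difference 3.14, SE 0.11, limma adjusted p = 4.78e-09) and the mitotic DEPDC1 from 42.8 ± 1.36 to 11.8 ± 1.61 TPM (difference 2.81, SE 0.17, limma adjusted p = 2.65e-07), and both rose in SK-Hep1. GCDH itself fell further in A375 batch 2 (difference 0.74, SE 0.15, limma adjusted p = 0.00239), with 20.9 ± 1.71 to 3.72 ± 0.269 TPM. TRPV2 went from 24.3 ± 2.46 to 14.4 ± 1.097 TPM there (difference 3.85, SE 0.15, limma adjusted p = 1.33e-08). ELF3 and ZNF185 were near 0 in A375 batch 2, and their differences (difference -3.72, SE 0.24, limma adjusted p = 4.69e-07 and difference 2.77, SE 0.13, limma adjusted p = 4.79e-08) rest on SK-Hep1, where ZNF185 rose from 25.1 to 97.1 TPM (log2 fold change 1.91). Respiratory chain genes were higher in 29 of 43 and NF-kB genes lower in 18 of 26. Of 29 p53 targets 12 were higher and 7 lower in SK-Hep1, and the own median of that list in A375 batch 2 was 0.57. The list counts against A375 batch 2 were not taken after median scaling.

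Against the libraries labelled SKBR3, the effect on GCDH did not differ past the threshold (difference 0.30, SE 0.20, limma adjusted p = 0.262), with 22.5 ± 0.397 to 5.94 ± 1.52 TPM in those libraries. It passed with quantile normalization (0.82, adjusted p = 0.0144), with a pseudocount of 5 (0.44, adjusted p = 0.0138) and without siGCDH replicate 3 of the libraries labelled SKBR3 (0.47, adjusted p = 0.0456). There p53 targets were higher in SK-Hep1 in 18 of 30 and lower in 3, interferon genes lower in 27 of 37 and higher in 0, sterol genes lower in 18 of 27 and respiratory chain genes higher in 31 of 43. These list counts were not taken after median scaling, with which the split over all genes turns round, so their dependence on it is unknown. The own median of the p53 list was 0.46 in the libraries labelled SKBR3 and 0.95 in SK-Hep1, above 0 in both. For interferon genes it was 0.59 in the libraries labelled SKBR3 and -0.27 in SK-Hep1, so that the difference holds a rise there too. Over all genes the own medians were 0.29 and 0.18. All 13 mitochondrially encoded genes were lower, with an own median of 1.28 in the libraries labelled SKBR3 and of 0.0005 in SK-Hep1. ATF4 went from 1061 ± 13.4 to 922 ± 11.8 TPM in those libraries (difference 0.24, SE 0.04, limma adjusted p = 0.000479), ATF3 from 72.6 ± 2.92 to 33.5 ± 0.598 TPM (difference 0.69, SE 0.21, limma adjusted p = 0.0213) and CHAC1 from 10.5 ± 3.45 to 3.11 ± 0.577 TPM (difference 1.69, SE 0.30, limma adjusted p = 0.00126). HMOX1 went from 25.1 ± 0.655 to 4.88 ± 1.12 TPM there, the same direction as in SK-Hep1 (difference -0.78, SE 0.21, limma adjusted p = 0.0125). With quantile normalization neither the ATF4 difference (0.07, adjusted p = 0.226) nor that of HMOX1 (-0.20, adjusted p = 0.544) passed, and with a pseudocount of 0.1 that of ATF3 did not (adjusted p = 0.0535). TRIB3 (difference -0.98, SE 0.10, limma adjusted p = 2.29e-05) was lower in SK-Hep1. ITGB4 went from 1.25 ± 1.104 to 7.78 ± 1.45 TPM there (difference -3.85, SE 0.35, limma adjusted p = 1.59e-05) and the histone gene H2BC21 from 2.04 ± 0.36 to 33.3 ± 1.31 TPM (difference -3.66, SE 0.20, limma adjusted p = 5.38e-07). DMBT1 and ELF3 were at or near 0 in the libraries labelled SKBR3.

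**Figure D5:**
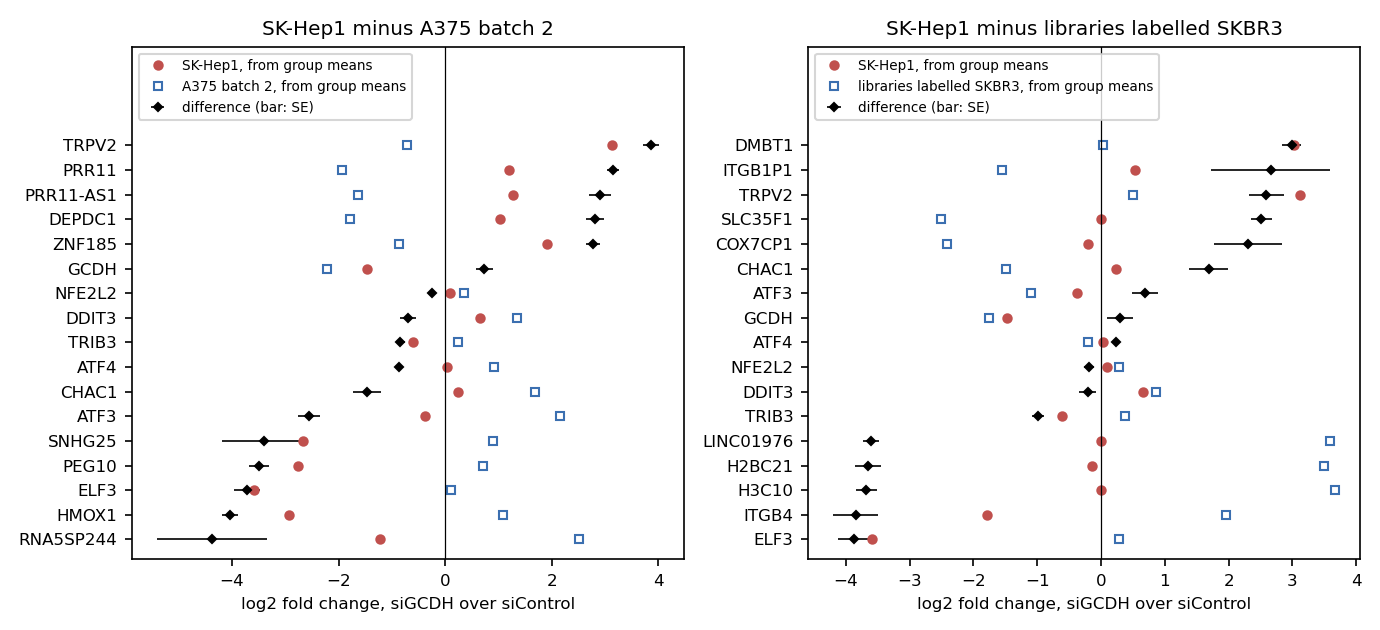
Log2 fold changes (x axis, siGCDH over siControl) of genes with the largest differences and of the stress panel, computed from group means in SK-Hep1 (red circles) and in the other line (blue squares), with the fitted difference and its SE (black diamonds). HMOX1 lies far below 0 in SK-Hep1 (its fitted log2 fold change is -2.95) and above 0 in A375 batch 2. TRPV2 lies furthest to the right of the SK-Hep1 points in both panels.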

How the data were processed

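RNA was sequenced from SK-Hep1 cells given siControl or siGCDH, 3 libraries each. Per the labels' protocols, poly(A) RNA was made into NEBNext Ultra II directional libraries and read single end. The submitters' processing notes name cutadapt 2.3, STAR 2.7.0d, RSEM 1.3.1 and hg38. The authors deposited TPM values per gene, so that the depth and its precision are unknown. Neither annotation release nor strand setting is given in the sources used here.

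Genes averaging 1 TPM or more over the 6 libraries were tested on log2(TPM + 1) with limma 3.58.1 in R 4.3.3 (lmFit, eBayes with trend), called at a Benjamini-Hochberg adjusted p under 0.05, and given no p over a list alone. Differences between lines were interaction terms over 12 libraries. The fits were tested on simulated data. Python 3.11.15, pandas 2.3.3, numpy 2.4.6 and scipy 1.17.1 did the rest. Genes named were GCDH, a stress panel (NFE2L2, ATF4, ATF3, DDIT3, CHAC1, TRIB3, DHTKD1), the 12 largest rises and falls at 5 TPM or more, up to 4 called members of each of 39 lists by adjusted p (the 2 members with the highest mean where fewer than 2 were called), the 3 highest cell type markers and those near 0, and the 5 largest differences each way per line. Members and lists were chosen with earlier results of these data known, and 2 lists and the 7-mer alternative after values were seen. Alternatives covered the pseudocount, filter, scaling, trend, robust fit, replicate block and leaving out each library. A375 batch 1, made with another kit, was not compared. Some genes that the rule names are not reported here.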

Additional observations from a re-analysis of the deposited data

Results flagged for a closer look

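The effect of siGCDH in SK-Hep1 differed from that in A375 batch 2 by an interaction test for 4485 genes upward and 2698 downward of 15548 tested, of which the 17 that follow are the targeted gene, the stress panel and the largest differences, given as the difference of log2 fold changes (SK-Hep1 minus A375 batch 2). The targeted gene and the stress panel differed for GCDH at 0.735 (adjusted p = 0.00239), ATF4 at -0.88, ATF3 at -2.55, CHAC1 at -1.47, DDIT3 at -0.69, TRIB3 at -0.85 and NFE2L2 at -0.25 (adjusted p = 0.0143). TRPV2 differed by 3.85, PRR11 by 3.14, its antisense gene PRR11-AS1 by 2.905, DEPDC1 by 2.81 and ZNF185 by 2.77, where PRR11 and PRR11-AS1 can share reads. HMOX1 differed by -4.04, ELF3 by -3.72 and PEG10 by -3.49. RNA5SP244, a ribosomal RNA pseudogene, differed by -4.37 and SNHG25 by -3.39, both with large spreads between libraries (SE 1.04 and 0.79).

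Against the libraries labelled SKBR3, 2384 differences were higher and 4120 lower of 16480 tested, and 14 genes of the same kinds are given. TRPV2 differed by 2.59, DMBT1 by 2.99, SLC35F1 by 2.51, COX7CP1 by 2.305 and ITGB1P1 by 2.66 (adjusted p = 0.0424), and the last 2 are pseudogenes. The ITGB1P1 difference did not pass with a replicate block (adjusted p = 0.087) or under 14 other alternatives (adjusted p = 0.0541 to 0.122), among them leaving out any SK-Hep1 library. ITGB4 differed by -3.85, ELF3 by -3.87, H2BC21 by -3.66, H3C10 by -3.67 and LINC01976 by -3.60. In the stress panel ATF3 differed by 0.69 (adjusted p = 0.0213), ATF4 by 0.24, CHAC1 by 1.69 and TRIB3 by -0.98. SLC35F1, H3C10 and LINC01976 are listed at 0 in all SK-Hep1 libraries, so that their differences rest on the other line.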

How the results depend on the processing

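With siGCDH 5432 genes were called higher and 2644 lower. Leaving out each library in turn gave 4582 to 5193 and 2374 to 2475, a filter at 5 TPM 4635 and 2385, no filter 5073 and 2481, and the fit without the trend 5312 and 2543. Among the 10015 genes with a searched 3' UTR 4150 were higher and 2217 lower, and among the 8146 of these that hold neither 7-mer 3603 and 1604, counts that are lower by construction since fewer genes enter. GCDH kept its call throughout, with log2 fold changes from -0.89 (pseudocount 5) to -1.75 (pseudocount 0.1). Replicate numbers are shared between groups, and deviations of same-numbered libraries correlated at -0.01, 0.06 and 0.01. No shared replicate effect was seen, which cannot show whether the wells were paired by design. With a replicate block, 5264 genes were higher and 2608 lower, GCDH stood at -1.48 (adjusted p = 0.000505), and the differences were 4252 and 2529 against A375 batch 2 and 2211 and 3823 against the libraries labelled SKBR3. Of 178 genes picked by the naming rule, 8 changed side in at least 1 alternative, 6 of them on leaving out a library, and 0 reversed. They were CYP2E1, RNA5SP244, SIRT6, AFP, DLD, MT-ATP8, ATF3 and ITGB1P1. Of 40 list members named beyond the rule, 7 changed side and 0 reversed, 5 of them on leaving out a library. They were ACSL4, B2M, KEAP1, RELA, STARD4, KRT19 and PLK3. Of 35 differences between lines, 6 changed side, those from the libraries labelled SKBR3 for ITGB1P1 (with the replicate block too, adjusted p = 0.087), GCDH, NFE2L2 (adjusted p = 0.044 without siGCDH replicate 1 there), ATF3, ATF4 and HMOX1. The block changed no other of these calls. Leaving out each library gave 4048 to 4383 and 2405 to 2647 differences against A375 batch 2, and 2089 to 2350 and 3619 to 3961 against the libraries labelled SKBR3. Depth limits genes near 1 TPM most and cannot be given from TPM.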
